A study of Homo sapiens with 44 samples.

Results

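The OAS antiviral enzymes were examined as the chromatin peaks assigned to OAS1, OAS2, OAS3 and OASL in bulk ATAC-seq of Ccd18-Co cells, a human colon fibroblast line. ATAC-seq marks open chromatin by the places where a transposase can cut and tag the DNA. Every peak of the deposited table whose gene field named one of the 4 genes was taken, which gave 45 of 407383 peaks (17 for OAS1, 8 for OAS3, 11 for OAS2 and 9 for OASL). The 44 libraries fell into 11 groups of 4. One group was unstimulated, and the others had received IFNA, IFNG, TNF, OSM, TGFB1, IL13, IL6, IL17A or IL22 at 10 ng/ml, or IL1B at 0.1 ng/ml, in serum-free medium. The IL1B dose is that of the study's methods, and a figure legend of the study on the matching RNA profiles gives a lower one. All groups are the same single cell line. Nothing in the labels says that the 4 libraries of a group came from separate cultures. Each p-value rests only on the spread between libraries of the same group, pooled over all 11 groups. That spread may be technical.

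The OAS enzymes are sensors of double-stranded RNA, a product of many viral infections. On binding it, OAS1, OAS2 and OAS3 join ATP into short adenylate chains that act as a second messenger of antiviral defence. OASL has lost this catalytic activity and is known to act instead through other nucleic acid sensors. All are textbook interferon-stimulated genes. Responses to type I interferon (IFNA) run largely through the interferon-stimulated response element (ISRE), and responses to IFNG through the gamma-activated sequence (GAS) and through IRF1, a factor that also binds ISRE-like letters.

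Summed coverage per library ran from 148.8 Mb (IL6 replicate 4) to 823.1 Mb (IFNA replicate 2), where Mb are megabases of read coverage inside the peaks. Of the fibroblast markers, 7 of 10 had a promoter peak to read, and together these held 53.2 to 98.1 coverage units per Mb in every library. Promoter peaks were read for 1 of 5 epithelial markers (KRT8), 1 of 4 immune markers (CD14) and 4 of 4 endothelial markers, with summed ranges over all libraries of 2.88 to 7.25, 0.363 to 3.49 and 1.22 to 5.18. These sums are over unlike numbers of peaks. The median peak mean was 9.52 for the fibroblast list, then 4.57, 1.58 and 0.477. Not every fibroblast marker was high, since VIM and LUM had unstimulated means of 2.12 and 0.903, below that of KRT8 (4.55). None of these marker peaks was called with IFNA or IFNG. The CD14 peak, the whole of the immune list that could be read, ran from 0.671 to 0.904 in the unstimulated libraries, from 1.34 to 2.23 with IFNA and from 1.48 to 2.79 with IFNG, and its part in the results below was not tested. Levels throughout are coverage per Mb of library total, divided by a composition factor, and every peak has the same length of 501 bases with both ends counted, so levels of different peaks are per the same length. Most members were shallow, with 31 of 45 averaging under 1 per Mb over all libraries and 16 of 45 having a median of under 3 reads' worth of coverage.

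OAS1, OAS3 and OAS2 lie head to tail on the plus strand of chromosome 12, at chr12:112906962-112919903, chr12:112938474-112973251 and chr12:112978519-113011723 (hg38, GENCODE v44), and OASL lies apart from them on the minus strand at chr12:121019111-121039246. Peaks are named here by their gene and the signed distance of their centre from the start site of that gene's canonical transcript. By the deposited class, 8 members were promoter, 19 intronic, 5 exonic and 13 distal. The assignment of peaks to genes reached far. The most distant member, OAS1 -168.2 kb, lay between genes, 5 other OAS1 peaks from -112.0 to -15.1 kb lay in introns of RPH3A, and OAS2 -7.0 kb lay in the last exon of OAS3.

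The stretches that the results below turn on are printed here so that the interferon-response letters can be seen beside the levels. They are the 250 bases before the OAS1 and OAS3 start sites from RefSeq (GRCh38.p14), whose table held those 2 of the 4 genes and not OAS2 or OASL. Capitals mark the ISRE core GAAANNGAAA, or the same core with a spacer of 1 base, GAAANGAAA, on either strand. The 1-base spacer was added to the search after the sequences had been seen.
OAS1, chr12:112906712-112906961, + strand: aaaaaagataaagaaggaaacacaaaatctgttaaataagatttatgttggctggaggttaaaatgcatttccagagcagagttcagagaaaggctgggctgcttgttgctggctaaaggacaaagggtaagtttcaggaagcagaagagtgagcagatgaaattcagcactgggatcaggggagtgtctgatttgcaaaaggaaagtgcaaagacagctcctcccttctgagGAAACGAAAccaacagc
OAS3, chr12:112938224-112938473, + strand: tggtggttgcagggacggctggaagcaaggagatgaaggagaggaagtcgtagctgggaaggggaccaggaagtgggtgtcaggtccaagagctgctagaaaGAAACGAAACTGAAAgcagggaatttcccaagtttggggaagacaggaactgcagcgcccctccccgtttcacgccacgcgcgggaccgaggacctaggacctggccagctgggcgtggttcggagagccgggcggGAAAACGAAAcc
The OAS1 stretch held no ISRE core but had the 1-base spacer form starting 17 bases before the start site, and a GAS match (TTCNNNGAA) starting 168 bases before it, which is left in lower case. In the OAS3 stretch, 1 ISRE core began 143 bases before the start site, where it overlapped a 1-base spacer match that began 148 bases before it, and a second core began 12 bases before the start. Among all 35116 RefSeq promoters cut to the same 250 bases, 3.02% held an ISRE core, 2.69% the 1-base form and 6.57% a GAS match. Over whole peaks, an ISRE core was found in 7 of 45 members (15.6%) against 9.13% of all peaks and 6.64% of promoter peaks, and a GAS match in 10 of 45 (22.2%) against 17.19% and 12.92%. The 1-base form was found in 5 of 45 members (11.1%) against 8.39% of all peaks and 5.99% of promoter peaks. Of the 7 members with an ISRE core, 3 were raised with IFNA and 2 with IFNG by the test given below. Of the 38 without one, 6 and 4 were raised, among them OAS1 -0.1 kb, which holds the 1-base form. Over all peaks raised with IFNA, 27.3% held the core, and over those raised with IFNG, 46.1%. A match describes letters only, and a window without one says only that these letters are not there.

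The first comparison asked how each interferon changed accessibility at the OAS genes. With IFNA, 9 of 45 members were raised and none was lowered (limma, Benjamini-Hochberg adjusted p-value under 0.05 over 407162 peaks tested), against 0.339% of all peaks raised and 0.281% lowered. At an unadjusted p under 0.05 in the same limma fit, 17 members were higher and 2 lower. No share of all peaks was computed at the unadjusted threshold, for either interferon. The median log2 change of the members was 0.50 with IFNA, beside -0.01 over all tested peaks, and 39 of 45 changes were above 0. With IFNG, 6 of 45 members were raised and none lowered, against 1.36% and 0.211% of all peaks, with 12 higher and 1 lower at an unadjusted p under 0.05. The median change with IFNG was 0.30 beside -0.01, and 32 of 45 changes were above 0. Both interferon comparisons share the same 4 unstimulated libraries. Since coverage is an average over many cells, a site opened further in each cell and a site opened in more cells cannot be told apart.

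The raised peaks lay mostly near the start sites. Of the 8 promoter-class members, 5 were raised with IFNA and 4 with IFNG, beside 0.557% and 1.39% of all promoter-class peaks. Split at 1 kb from the start site, a distance picked after the values had been seen, 6 of 8 near members and 3 of 37 far members were raised with IFNA, with median log2 changes of 1.92 and 0.28. With IFNG the counts were 5 of 8 and 1 of 37, with medians of 1.32 and 0.22. The split was not matched for coverage, and no share over all peaks was computed for it. The near members OAS2 -0.7, -0.1 and +0.6 kb lie side by side, and whether their coverage is independent was not tested. Of the 31 of 45 members averaging under 1 per Mb, only OAS1 +0.6 kb and OAS2 -0.7 kb were near. Among far members the highest means were at OASL -21.2 kb (7.14 per Mb), OAS1 +9.6 kb (4.66) and OASL +2.3 kb (4.08). Of these, only OASL +2.3 kb was not raised with IFNA. The part of coverage in the split was not tested. All 4 IFNA libraries lay above all 4 unstimulated libraries at 14 of 45 members, against 2.2% of all peaks, and the 4 IFNG libraries did so at 8 of 45, against 3.9%.

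**Figure D1:**
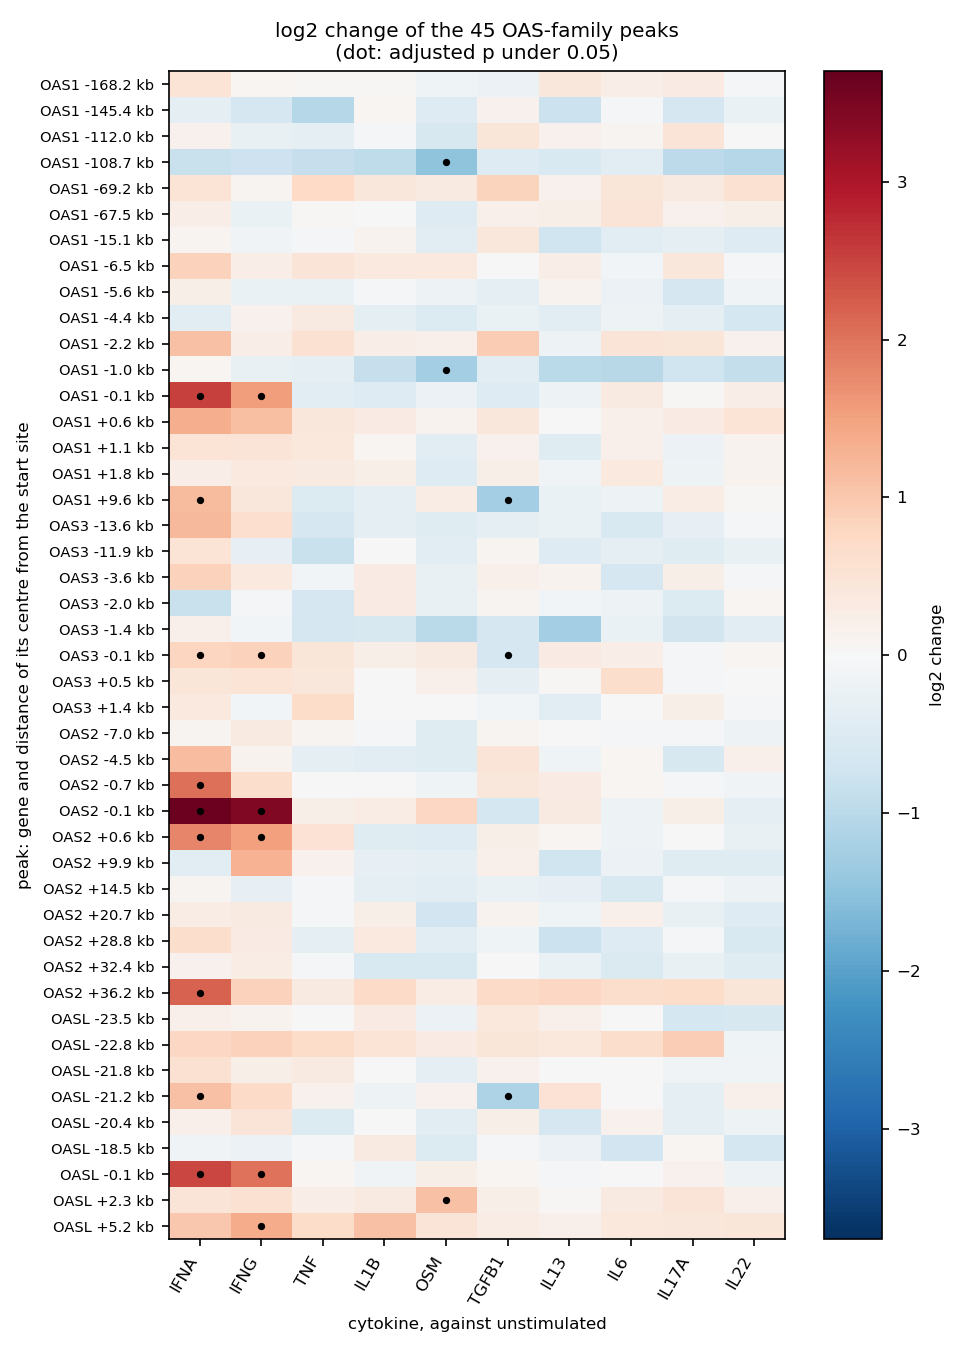
Fitted log2 change against unstimulated (colour) for each of the 45 peaks (rows, gene and signed distance from the start site) with each of 10 cytokines (columns); black dots mark an adjusted p under 0.05. The dots in the interferon columns are all on raised peaks, 9 with IFNA and 6 with IFNG, and the darkest cells are at OAS2 -0.1 kb.

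OAS1 encodes the smallest of the catalytic enzymes. Its main promoter peak, OAS1 -0.1 kb (chr12:112906610-112907110), covers exon 1 with its coding part and untranslated leader. The unstimulated libraries held 2.25, 1.89, 1.44 and 1.38 per Mb. With IFNA the level was 13.4, 12.8, 9.42 and 14.3, and with IFNG it was 4.66, 6.99, 6.78 and 5.84. The 3 groups did not overlap at all, with IFNG between the other two. Mean coverage was 7.17-fold higher with IFNA (12.5 ± 2.14 against 1.74 ± 0.41, SD, n = 4) and 3.48-fold higher with IFNG (6.07 ± 1.06). On the log2(level + 0.5) scale used for every test, the changes were 2.54 ± 0.32 (SE, limma adjusted p = 5.42e-10) and 1.55 ± 0.32 (adjusted p = 0.000353).

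A second OAS1 peak, OAS1 +9.6 kb (chr12:112916341-112916841), lies over coding exon 4. Its levels were 2.78, 4.21, 6.85 and 4.06 in the unstimulated group, 9.54, 11.7, 9.52 and 10.0 with IFNA, and 6.64, 8.67, 5.73 and 3.65 with IFNG. All IFNA libraries lay above all libraries of both other groups, while the IFNG and unstimulated libraries overlapped. The log2 change was 1.16 ± 0.26 with IFNA (limma adjusted p = 0.00566) and 0.43 ± 0.26 with IFNG (adjusted p = 0.657). The IFNA call was lost without unstimulated replicate 1 (0.98, limma adjusted p = 0.0829) and without a trend (1.16, adjusted p = 0.0565). None of the other 15 OAS1 members was called with either interferon, and the closest was OAS1 +0.6 kb in an intron, with a log2 change of 1.35 ± 0.39 with IFNA (adjusted p = 0.0842) and 1.11 ± 0.39 with IFNG (adjusted p = 0.180).

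OAS2 encodes a larger enzyme with a pair of OAS units. The OAS2 -0.1 kb peak (chr12:112978182-112978682), over exon 1, had the largest changes of the family. It held 2.42, 2.53, 1.99 and 2.81 in the unstimulated libraries, 38.1, 38.2, 32.7 and 33.7 with IFNA, and 27.9, 30.7, 35.3 and 30.4 with IFNG. Both interferon groups lay far above the unstimulated group and overlapped each other. The mean rose 14.6-fold with IFNA (35.7 ± 2.9 against 2.44 ± 0.343) and 12.7-fold with IFNG (31.1 ± 3.07). Fitted log2 changes were 3.63 ± 0.26 (limma adjusted p = 1.3e-28) and 3.43 ± 0.26 (adjusted p = 3.62e-26). Among all 407162 tested peaks, this peak ranked first by p-value and 3rd by log2 change with IFNA, and 2nd and 25th with IFNG. The peak stood at the percentile 46.2 of promoter-class peaks by its unstimulated mean and at 97.4 by its IFNA mean.

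Both neighbours of the OAS2 promoter peak were also raised with IFNA. OAS2 -0.7 kb (chr12:112977591-112978091), between genes, held 0.358, 0.544, 0.509 and 0.372 in the unstimulated group, 4.36, 4.69, 1.7 and 3.39 with IFNA, and 2.09, 0.341, 1.39 and 0.697 with IFNG. Its unstimulated values rest on 2.0 to 2.9 reads' worth of coverage per library. IFNA libraries were all above the unstimulated ones, and the IFNG libraries overlapped both other groups. The log2 change was 2.03 ± 0.39 with IFNA (limma adjusted p = 0.000587) and 0.66 ± 0.39 with IFNG (adjusted p = 0.643), and the IFNA call was lost with a pseudocount of 0.1 per Mb (2.66, adjusted p = 0.0675).

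OAS2 +0.6 kb (chr12:112978907-112979407), in an OAS2 intron, held 0.79, 0.15, 1.31 and 0.562 without stimulation, 4.31, 3.94, 2.02 and 4.15 with IFNA, and 1.82, 2.49, 3.63 and 3.45 with IFNG. Both interferon groups were above every unstimulated library and overlapped each other. The log2 changes were 1.82 ± 0.39 (limma adjusted p = 0.00293) and 1.53 ± 0.39 (adjusted p = 0.0109). Leaving out unstimulated replicate 2 ended both calls (1.55, limma adjusted p = 0.055, and 1.27, adjusted p = 0.134). The IFNG call was also lost without IFNG replicate 3 (adjusted p = 0.0685) or replicate 4 (adjusted p = 0.06), and both calls were lost with a pseudocount of 0.1 per Mb (adjusted p = 0.0751 and 0.132).

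Downstream of the gene, OAS2 +36.2 kb (chr12:113014468-113014968) lay between genes and held 0, 0, 1.03 and 0.14 in the unstimulated libraries. It held 2.65, 1.87, 2.26 and 4.43 with IFNA and 1.19, 0.757, 0.485 and 0.734 with IFNG. Every IFNA library was above every library of both other groups, and IFNG replicate 1 alone was above all unstimulated ones. The log2 change was 2.17 ± 0.40 with IFNA (limma adjusted p = 0.000161) and 0.85 ± 0.40 with IFNG (adjusted p = 0.450). The fitted change of a peak with libraries at 0 depends on the pseudocount, so no linear fold is given.

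OAS3 encodes the largest enzyme of the family. Its promoter peak, OAS3 -0.1 kb (chr12:112938150-112938650), was the most open OAS promoter before stimulation, with 10.9, 14.3, 13.6 and 11.9 per Mb. With IFNA it held 24.8, 27.5, 15.9 and 22.3, and with IFNG 22.4, 24.7, 20.2 and 25.1. All treated libraries lay above the unstimulated ones, and IFNA replicate 3 lay closest to them. Mean coverage was 1.79-fold higher with IFNA (22.6 ± 4.98 against 12.7 ± 1.57) and 1.82-fold higher with IFNG (23.1 ± 2.28), the smallest folds of the 4 promoter peaks, though the difference between peaks was not tested. The log2 changes were 0.79 ± 0.17 (limma adjusted p = 0.00195) and 0.84 ± 0.17 (adjusted p = 0.000157), and a fit without a mean-variance trend ended the IFNA call (adjusted p = 0.112). The other 7 OAS3 members were not called with either interferon. OAS3 -13.6 kb, in the stretch between OAS1 and OAS3, had a log2 change of 1.19 ± 0.39 with IFNA (adjusted p = 0.155).

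OASL encodes the member without enzyme activity. OASL -0.1 kb (chr12:121039073-121039573), over an untranslated part of exon 1, held 1.0, 2.81, 0.772 and 2.3 without stimulation, 14.4, 11.0, 10.4 and 8.76 with IFNA, and 7.66, 8.27, 7.38 and 7.63 with IFNG. The groups did not overlap, and their order was that of the OAS1 promoter peak. Mean coverage was 6.47-fold higher with IFNA (11.1 ± 2.38 against 1.72 ± 0.992) and 4.49-fold higher with IFNG (7.73 ± 0.379). In log2 terms the changes were 2.48 ± 0.31 (limma adjusted p = 4.82e-10) and 2.00 ± 0.31 (adjusted p = 3.01e-07).

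A distal OASL peak, OASL -21.2 kb (chr12:121060194-121060694), was open before stimulation, at 5.79, 5.14, 6.63 and 6.62. It held 12.7, 13.6, 13.2 and 13.7 with IFNA and 8.91, 9.25, 11.6 and 10.9 with IFNG. The 3 groups did not overlap. The log2 change was 1.08 ± 0.22 with IFNA (2.2-fold, limma adjusted p = 0.00175) and 0.70 ± 0.22 with IFNG (1.68-fold, adjusted p = 0.0944). Of the other 5 distal OASL peaks, all within a few kb of this one, none was called with either interferon. The IFNA call was lost without a mean-variance trend (adjusted p = 0.0544), and the IFNG change passed when only the 2 groups compared were fitted (adjusted p = 0.0112).

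Inside the OASL gene, the intronic peak OASL +5.2 kb (chr12:121033823-121034323) was called with IFNG. The unstimulated libraries held 1.96, 1.72, 0 and 0.681, the IFNA libraries 1.61, 2.15, 2.3 and 2.65, and the IFNG libraries 3.9, 2.91, 1.83 and 3.62. IFNG replicate 3 fell within the unstimulated range, so the groups overlapped. The log2 change was 1.37 ± 0.35 with IFNG (limma adjusted p = 0.0103) and 0.99 ± 0.35 with IFNA (adjusted p = 0.229). The IFNG call was lost without unstimulated replicate 3 (0.90, adjusted p = 0.354), IFNG replicate 1 (1.26, adjusted p = 0.0682) or IFNG replicate 4 (1.29, adjusted p = 0.0585).

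**Figure D2:**
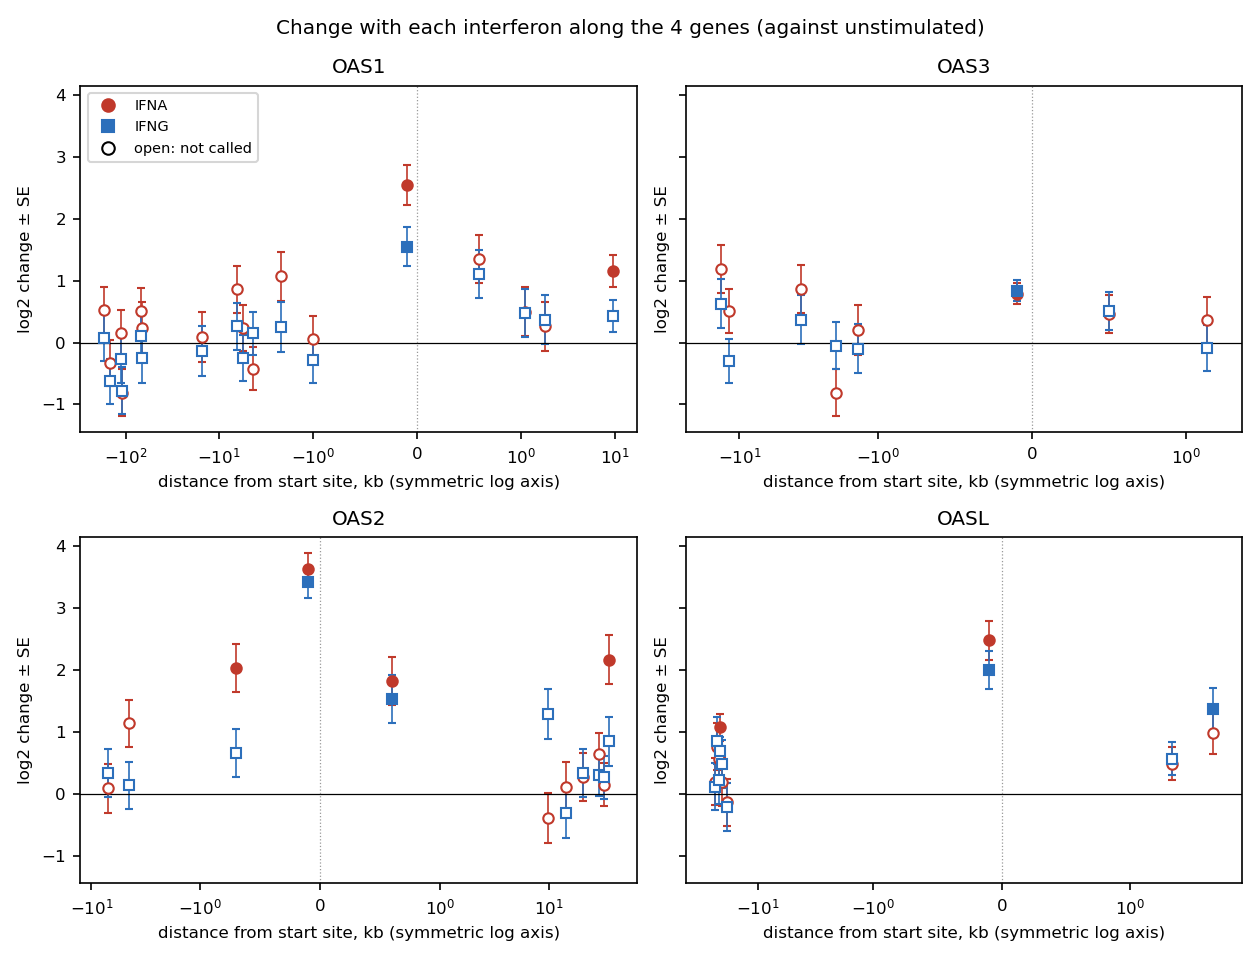
Fitted log2 change ± SE against unstimulated (vertical axis) by distance from the start site in kb (symmetric log axis, negative upstream) for the peaks of each gene, with IFNA as red circles, IFNG as blue squares, and filled symbols for an adjusted p under 0.05. The highest point of each panel but that of OAS3 is the peak at -0.1 kb, and in the OAS3 panel only that peak is filled.

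Among the 4 IFNA libraries, replicate 3, the shallowest at 325.2 Mb, was the lowest of its group at 6 of the 10 peaks described above and the highest at none. Replicate 2, the deepest, and replicate 4, at 384.3 Mb, were each the highest at 4 and the lowest at 1. Replicate 3 also had the highest composition factor of its group, 1.101, beside 0.926 to 1.008 in the other IFNA libraries. Whether depth or this factor has a part in these ranks was not tested. Summed over all 45 members, coverage was 59.6 ± 2.32 per Mb (SD, n = 4) in the unstimulated group, 159 ± 10.3 with IFNA and 127 ± 1.8 with IFNG. The lowest IFNA library (145) was above the highest IFNG library (129). By gene, the sums went from 15.0 to 35.7 and 21.3 at OAS1, from 18.9 to 32.4 and 30.9 at OAS3, from 10.5 to 55.7 and 45.1 at OAS2, and from 15.1 to 35.5 and 30.1 at OASL, with IFNA and IFNG in that order.

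The direct comparison of IFNA with IFNG asked whether the 2 interferons differed at the same peaks. Of the 45 members, 1 passed, against 1.02% of all tested peaks. It was OAS2 +9.9 kb (chr12:112988160-112988660), deposited as exonic but in an intron of the canonical OAS2 transcript, which is described because it passed this comparison and not by the rule for the other peaks. It held 0.541, 1.5, 0.994 and 0 in the unstimulated libraries, 0, 0.727, 0.475 and 0.382 with IFNA, and 1.48, 2.75, 2.79 and 2.1 with IFNG. All IFNG libraries were above all IFNA libraries, and both groups overlapped the unstimulated one. IFNA was lower than IFNG by -1.68 ± 0.40 in log2 (limma adjusted p = 0.00865). Against unstimulated, the changes were -0.39 ± 0.40 with IFNA (adjusted p = 0.857) and 1.29 ± 0.40 with IFNG (adjusted p = 0.0796). Its IFNA values rest on at most 7.4 reads' worth of coverage. Without IFNA replicate 1 the difference no longer passed (-1.42, adjusted p = 0.104), and it was also lost with a pseudocount of 0.1 per Mb (-2.57, adjusted p = 0.192) and without a trend (-1.68, adjusted p = 0.0712).

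At the promoter peaks, the log2 difference between IFNA and IFNG was 0.98 at OAS1 (95% interval 0.36 to 1.61, limma adjusted p = 0.126), 0.48 at OASL (-0.13 to 1.09, adjusted p = 0.721), 0.20 at OAS2 (-0.31 to 0.71, adjusted p = 0.916) and -0.05 at OAS3 (-0.38 to 0.27, adjusted p = 0.974). The OAS1 interval leaves out 0 but the difference did not pass after correction. It passed in 2 of the other settings tried, a pseudocount of 2 per Mb (0.84, adjusted p = 0.00261) and a fit of the 2 groups alone (0.98, adjusted p = 0.00055). Of the peaks described above, OAS2 -0.7 kb (1.36, 0.59 to 2.14, adjusted p = 0.0572) and OAS2 +36.2 kb (1.32, 0.54 to 2.11, adjusted p = 0.0762) had the largest differences in favour of IFNA, and neither passed. Both passed with a pseudocount of 2 per Mb (0.82 and 0.76, adjusted p = 0.000696 and 0.00221) and with the 2 groups alone (adjusted p = 0.00212 and 0.00786). OAS2 -0.7 kb also passed with loess offsets (1.37, adjusted p = 0.0472), robust moderation (1.36, adjusted p = 0.0495) and array quality weights (1.58, adjusted p = 0.00576), and without IFNA replicate 3 (1.63, adjusted p = 0.0258) or IFNG replicate 1 (1.63, adjusted p = 0.0289). OAS1 +9.6 kb passed with the 2 groups alone (0.73, adjusted p = 0.0447). All 4 IFNA libraries lay above all 4 IFNG libraries at 8 of 45 members, against 2.05% of all peaks, and below them at 1. The 8 were OAS1 -0.1 and +9.6 kb, OAS3 -11.9 kb, OAS2 -4.5 and +36.2 kb, and OASL -21.8, -21.2 and -0.1 kb, and none of them passed the corrected test.

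**Figure D3:**
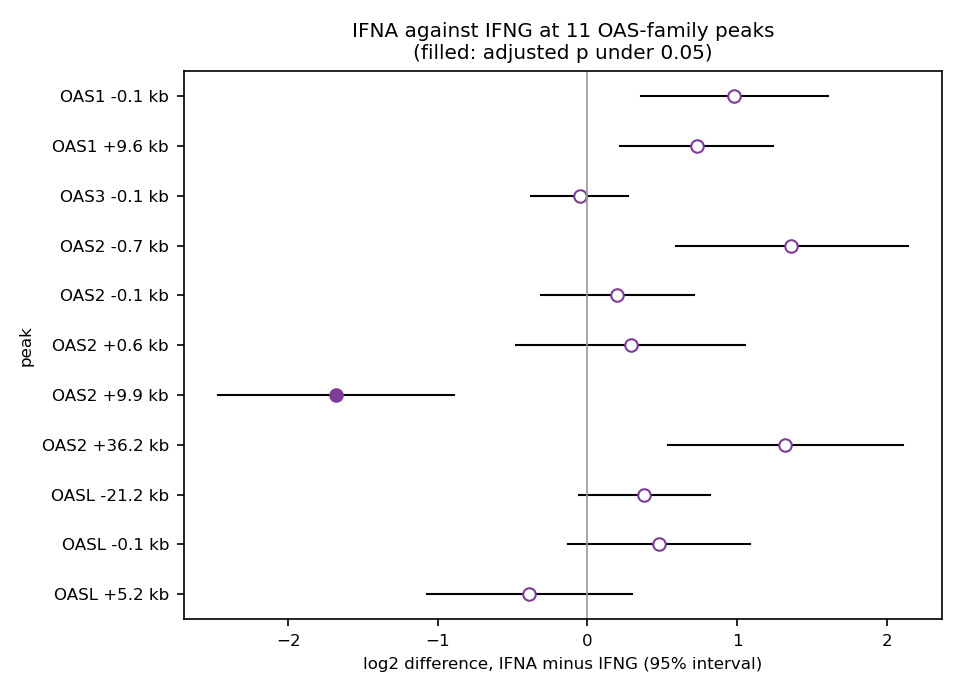
Log2 difference between IFNA and IFNG with its 95% interval (horizontal axis, positive where IFNA was higher) for the 10 peaks described with an interferon and for OAS2 +9.9 kb; the filled point passed an adjusted p of 0.05. OAS2 +9.9 kb stands alone on the left at -1.68, and the OAS3 promoter peak is at -0.05.

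The other 8 cytokines gave 6 calls among the 45 members, 3 with OSM and 3 with TGFB1, against 4.35% and 3.72% of all peaks. No member was called by limma with TNF (4.06% of all peaks), IL1B (3.14%), IL13 (1.3%), IL22 (0.0457%), IL6 (0.042%) or IL17A (0.0273%). At an unadjusted p under 0.05, these had 5, 3, 5, 2, 2 and 3 members. Of these, 2, 1, 1, 0, 1 and 1 were higher and the rest lower, and no share of all peaks was computed at that threshold. At the 4 promoter peaks no cytokine other than the interferons had a higher call. In the order of group means, IFNA and IFNG took the first places at all 4. At the OAS1, OAS2 and OASL promoter peaks, every interferon library was above every library of the other 9 groups. Each of those 9 ranges overlapped the next in that order, though not always the unstimulated range. At OAS2 -0.1 kb all OSM libraries (3.66 to 5.18) lay above the unstimulated ones (1.99 to 2.81), with no call (0.76 ± 0.26, limma adjusted p = 0.0701). All TGFB1 libraries there (0.881 to 1.75) lay below the unstimulated ones, also with no call (-0.66 ± 0.26, adjusted p = 0.159). At the OAS3 promoter peak the ranges overlapped from IFNG (23.1) through IFNA (22.6), TNF (17.4) and OSM (16.2) down to TGFB1 (8.24). All TNF libraries there (15.7 to 20.3) lay above the unstimulated ones (10.9 to 14.3), with no call (0.44 ± 0.17, limma adjusted p = 0.128).

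**Figure D4:**
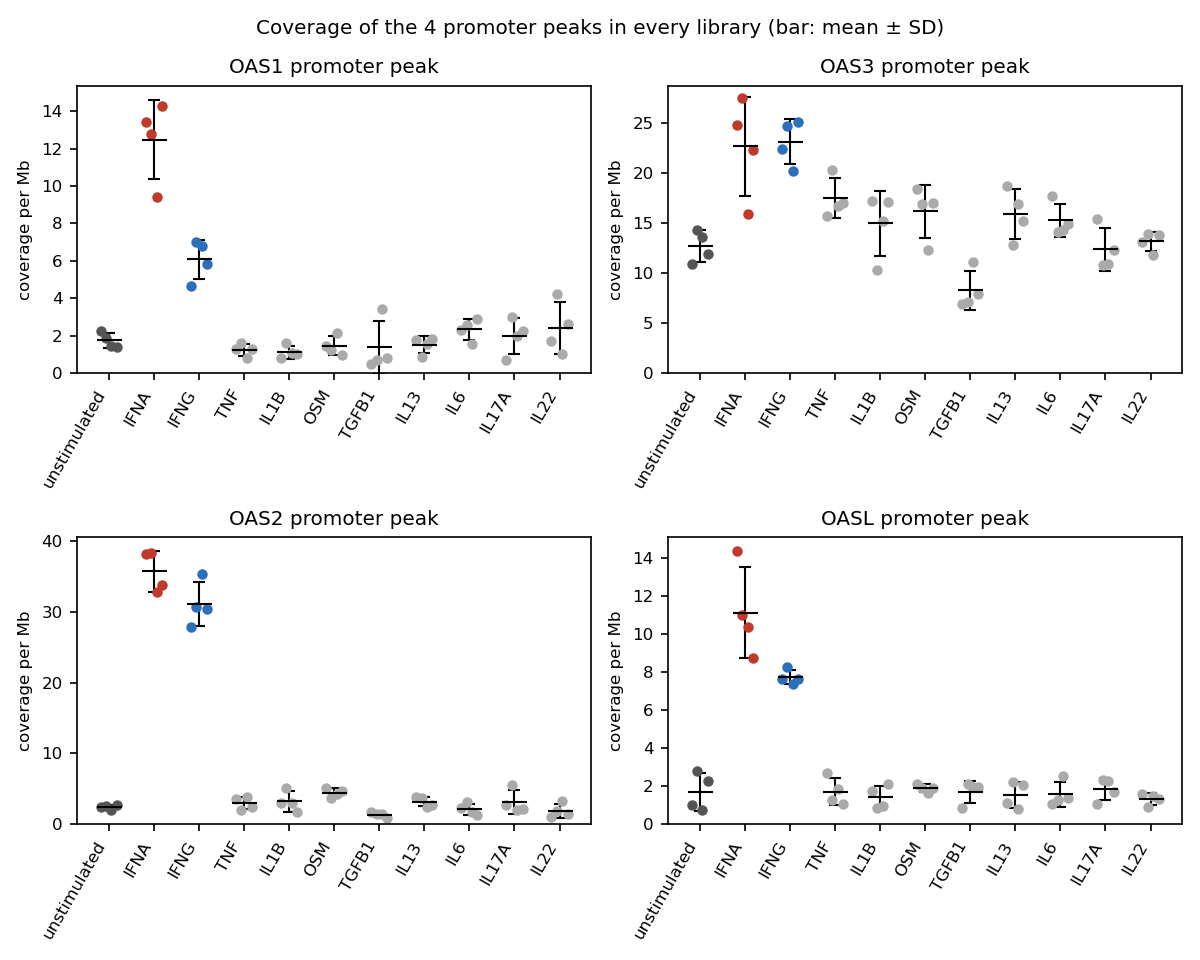
Coverage per Mb (vertical axis, from 0) of the promoter peak of each gene in every library (points) by group, with bars for the mean ± SD of 4 libraries. The IFNA (red) and IFNG (blue) points stand above all the others at OAS1, OAS2 and OASL, and at OAS3 the unstimulated mean was already 12.7 and TGFB1 had the lowest mean, 8.24.

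TGFB1, the fibroblast-activating cytokine, lowered 3 members, and 2.58% of all peaks were lowered. The TGFB1 libraries had composition factors from 1.065 to 1.135, beside 1.004 to 1.024 in the unstimulated group. Beyond the other scalings tried, the part of this library-wide difference in the calls was not tested. OAS1 +9.6 kb held 2.33, 1.93, 1.7 and 0.558 with TGFB1, below the unstimulated 2.78 to 6.85 (log2 change -1.25 ± 0.26, limma adjusted p = 0.000319). OASL -21.2 kb held 1.04, 4.24, 3.95 and 1.87, below the unstimulated 5.14 to 6.63 (-1.14 ± 0.22, adjusted p = 0.000129). The OAS3 promoter peak held 6.86, 7.07, 11.1 and 7.92 against 10.9 to 14.3, which overlap (-0.61 ± 0.17, adjusted p = 0.0129). Each of these peaks was among those raised with IFNA, a comparison that uses the same unstimulated libraries, so the values are only set side by side. The OAS3 call was lost without unstimulated replicate 2 or 3 or TGFB1 replicate 1 or 2 (adjusted p from 0.0541 to 0.0746), with median-of-ratios factors (-0.45, adjusted p = 0.0663), with loess offsets (-0.34, adjusted p = 0.279), without a trend (-0.61, adjusted p = 0.136) and with a composition factor over peaks covered in every library (-0.46, adjusted p = 0.0591), an alternative chosen after seeing the data.

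OSM, a cytokine of the IL6 family, raised OASL +2.3 kb (chr12:121036654-121037154), an intronic peak, from 2.52, 3.52, 2.48 and 3.19 to 6.24, 7.38, 5.72 and 7.38 (log2 change 1.07 ± 0.27, limma adjusted p = 0.00495). All OSM libraries were above the unstimulated ones. With OSM, 3.29% of all peaks were raised and 1.06% lowered. The OSM libraries had composition factors from 0.87 to 0.923, beside 1.004 to 1.024 in the unstimulated group. They had 9.64% to 17.03% of peaks at 0, beside 3.53% to 10.85%. Beyond the other scalings tried, the part of these differences in the calls was not tested. The other OSM calls were lower and rest on peaks near 0. OAS1 -108.7 kb, in an RPH3A intron, held 0.65, 0.803, 1.8 and 0.964 without stimulation and 0.156, 0, 0 and 0 with OSM (-1.49 ± 0.38, adjusted p = 0.00682). OAS1 -1.0 kb went from 1.25, 0.557, 1.09 and 0.67 to 0.162, 0.129, 0 and 0 (-1.26 ± 0.37, adjusted p = 0.0259). Both lower calls were lost with loess offsets (adjusted p = 0.0815 and 0.225) and without unstimulated replicate 3 (adjusted p = 0.0555 and 0.0768), and that at OAS1 -1.0 kb also without unstimulated replicate 1 (-1.14, adjusted p = 0.0896) or any of OSM replicates 2 to 4 (adjusted p from 0.0515 to 0.0792). The median change of all peaks with OSM was itself -0.13, beside -0.32 for the members.

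Next to the family, peaks of DTX1, P2RX7 and RPH3A within 50 kb of a member were read, and peaks of any other gene there were not. Those read were 17 peaks of DTX1, 8 of P2RX7 and 1 of RPH3A, 26 in all. With IFNA none was called by limma, and 2 had an unadjusted p under 0.05, a threshold at which no share of all peaks was computed. With IFNG 1 was raised, a distal P2RX7 peak at chr12:121087688-121088188 (log2 change 2.23, adjusted p = 3.28e-06, and 1.32 with IFNA, adjusted p = 0.0642). P2RX7 encodes an ATP-gated ion channel. Over 16765 genes with a promoter peak, those whose pattern across the 44 libraries was most like the mean of the 4 OAS promoter peaks were RSAD2 (Pearson r = 0.914), BST2 (0.909), DDX60 (0.880), HERC5 (0.865) and LOC100506321 (0.847). The members' own r with that mean, of which each is a part, was 0.962 for OAS2, 0.929 for OASL, 0.898 for OAS1 and 0.729 for OAS3. The libraries share their groups and the interferon groups set most of this likeness, so it is a description. The BST2 promoter peak went from 1.33 to 21.7 with IFNA and 18.2 with IFNG, and that of RSAD2 from 3.47 to 16.3 and 16.8.

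The rest of the pathway was read at 1 promoter peak a gene, for 23 genes of double-stranded RNA sensing, adenylate chain turnover, interferon signalling and its feedback. With IFNA 2 of 23 were raised and none lowered, beside 0.557% of all promoter-class peaks raised. The median log2 change was 0.27 beside -0.01 over all peaks. With IFNG 6 of 23 were raised and none lowered, beside 1.39% of all promoter-class peaks raised, with a median of 0.22 beside -0.01. At an unadjusted p under 0.05 there were 7 with IFNA and 8 with IFNG, and no share over all peaks was computed at that threshold. The IFNA calls were DDX58, which encodes the RNA sensor RIG-I, and DHX58, which encodes its relative LGP2. DDX58 held 14.5, 13, 15 and 13.7 unstimulated and 22, 23.7, 20 and 25.2 with IFNA (0.67 ± 0.18, limma adjusted p = 0.0344). DHX58 went from 16.7, 18.9, 20 and 17.3 to 24.6, 33.9, 23.6 and 27.6 (0.57 ± 0.15, adjusted p = 0.0459). Neither gene's groups overlapped, but the count of IFNA calls in the list fell to 0 when any of the 4 unstimulated replicates or IFNA replicate 1, 2 or 4 was left out, and rose to 3 without IFNA replicate 3.

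The IFNG calls in the list were IFIH1, ZC3HAV1, TLR3, JAK1, IRF1 and SOCS1. IFIH1 encodes MDA5, a sensor of long double-stranded RNA, and its promoter peak held 6.65, 4.86, 5.82 and 5.25 unstimulated and 15.5, 17.8, 11.1 and 14.1 with IFNG (1.29 ± 0.22, limma adjusted p = 3.95e-06). TLR3, the endosomal receptor for double-stranded RNA, went from 3.17, 2.87, 2.54 and 1.93 to 5.81, 5.79, 7.28 and 7.32 (1.18 ± 0.28, adjusted p = 0.00525). The groups did not overlap at either. ZC3HAV1, which encodes the zinc-finger antiviral protein, changed by 0.78 ± 0.16 (adjusted p = 0.000443), SOCS1, a feedback inhibitor, by 0.63 ± 0.16 (adjusted p = 0.0143), JAK1, a kinase of both interferon receptors, by 0.62 ± 0.18 (adjusted p = 0.0405) and IRF1, a transcription factor, by 0.58 ± 0.13 (adjusted p = 0.00114). The JAK1 peak was also called higher with OSM (0.77), IL6 (0.79), IL17A (0.85) and IL22 (1.00), all against the same unstimulated libraries (10.1 ± 0.417 per Mb). None of the 23 passed the IFNA against IFNG comparison, where IFIH1 had -0.63 (adjusted p = 0.190) and TLR3 -0.91 (adjusted p = 0.101).

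PDE12, which degrades the adenylate chains, had log2 changes of 0.19 and 0.12, and ABCE1, an ATP-binding protein of ribosome recycling, had -0.29 and -0.41, with no call for either gene. The receptor genes IFNAR1, IFNAR2, IFNGR1 and IFNGR2, the signalling genes JAK2, TYK2, STAT2, IRF9 and IRF7, the RNA or DNA sensing and editing genes CGAS, EIF2AK2 and ADAR, and USP18, a feedback inhibitor of type I interferon signalling, were not called with IFNA or IFNG. With TGFB1, 6 of the 23 were lowered (DDX58, DHX58, ZC3HAV1, TYK2, STAT2 and IRF7, from -0.85 to -0.40) beside 2.58% of all peaks, and the list's median was -0.33 beside 0.06 for all peaks. The 23 are the best covered promoter peak of each gene, while most of all peaks are not promoter peaks. No share over promoter peaks was computed for TGFB1, and whether peak class or level has a part here was not tested.

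**Figure D5:**
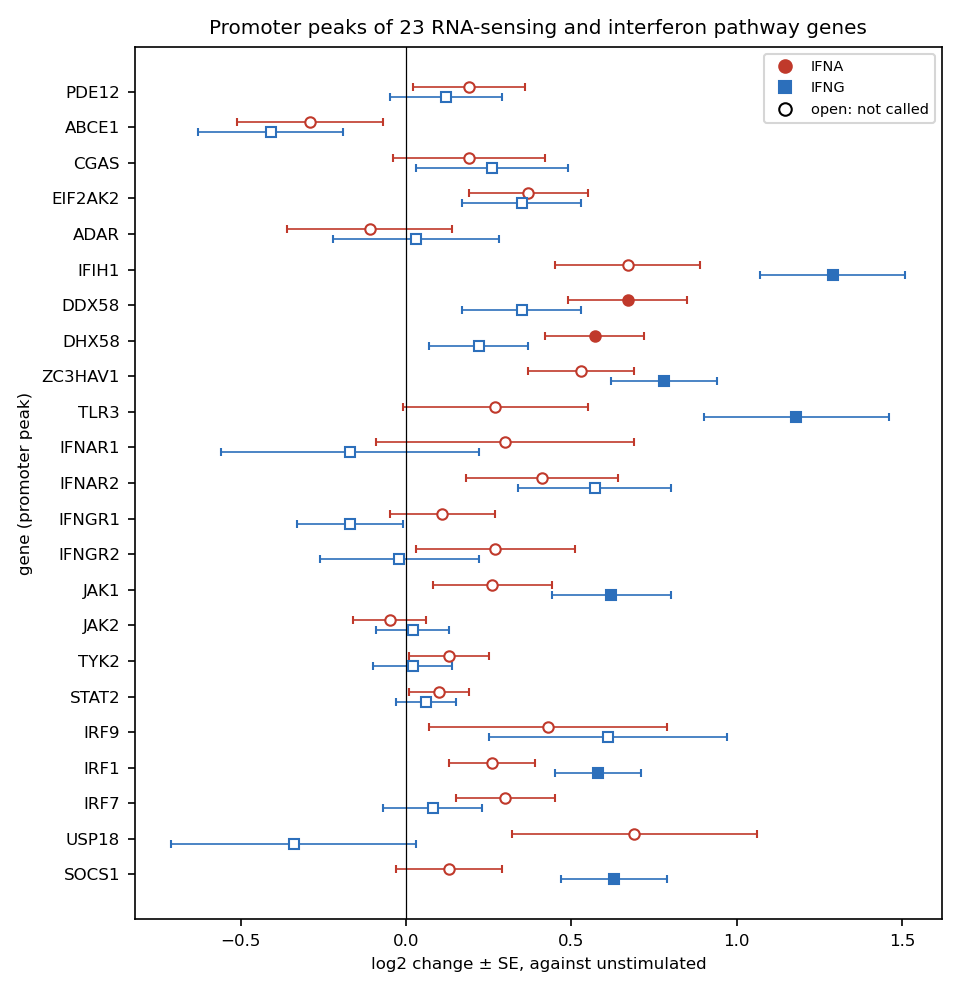
Fitted log2 change ± SE against unstimulated (horizontal axis) at the promoter peak of 23 pathway genes, with IFNA as red circles, IFNG as blue squares and filled symbols for an adjusted p under 0.05. DDX58 and DHX58 are filled for IFNA, and IFIH1 at 1.29 and TLR3 at 1.18 are the points farthest right.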

How the data were processed

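Bulk ATAC-seq of 44 Ccd18-Co libraries was analysed from the deposited table, whose values are signal: read coverage that the authors summed over the bases of each peak (paired-end reads aligned to hg38 with an ENCODE ATAC-seq pipeline per the study's methods, peaks called with MACS2 per the labels). Coverage grows with read length (75 bases) and overlap, so no count model was used. Coverage was divided by the library total in Mb and a composition factor (a mean of log ratios with 30% trimmed by ratio and 5% by level at each end), 221 peaks with a log2 mean at or below -3 were dropped, and log2(value + 0.5) was tested in limma 3.58.1 (R 4.3.3) with a trended prior over all 11 groups. A call is an adjusted p-value under 0.05. The fit was checked on simulated coverage. The lowest and highest library depths are given in the report, and no interval for counting error is given because coverage is not a count of reads.

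The members, gene lists and tests were chosen with earlier results of these data known. Described in full are, per gene, the promoter peak with the highest mean coverage and up to 3 further peaks with the lowest p for each interferon among those called there. Other scalings, pseudocounts, filters, fits, a replicate block and leaving out each library were tried. The pathway genes are named in the report. The fibroblast markers were COL1A1, COL1A2, COL3A1, PDGFRB, PDGFRA, THY1, VIM, DCN, LUM and TWIST1, the epithelial EPCAM, CDH1, KRT8, KRT20 and VIL1, the immune PTPRC, CD3E, CD14 and SPI1, and the endothelial PECAM1, CDH5, VWF and TEK. Some genes and sequences are not reported here. Figures were drawn with matplotlib 3.10.9.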

Additional observations from a re-analysis of the deposited data

Results flagged for a closer look

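Within 62 groups of 4 libraries at the peaks described above, 4 had 1 library far from the other 3 (past Dixon's 95% critical value for a group of this size), where chance gives about 1 in 20. At the OAS1 promoter peak, TGFB1 replicate 3 held 3.44 per Mb while the others held 0.495 to 0.807. At the OASL promoter peak, TGFB1 replicate 1 held 0.855 against 1.95 to 2.12. IFNA replicate 3 held 2.02 at OAS2 +0.6 kb against 3.94 to 4.31, and unstimulated replicate 3 held 1.03 at OAS2 +36.2 kb against 0 to 0.14. A difference between the interferons was called at OAS2 +9.9 kb, where the limma log2 difference of IFNA and IFNG was -1.68 (adjusted p = 0.00865).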

How the results depend on the processing

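The IFNA count of 9 and the IFNG count of 6 moved by no more than 1.5 times under any setting tried, from 6 to 12 and from 5 to 8, and from 8 to 10 and 4 to 6 when single libraries were left out. The single OAS-family difference between IFNA and IFNG became 0 with a pseudocount of 0.1 per Mb, with a filter at a log2 mean of 0 and without a trend, 2 with loess offsets, robust moderation or array quality weights, 4 with a pseudocount of 2 per Mb and 5 with only the groups compared in the fit, and ranged from 0 to 2 without single libraries. The 6 calls with the other 8 cytokines became 3 with loess offsets and ranged from 3 to 8 without single libraries. The 2 pathway calls with IFNA became 0 with a pseudocount of 0.1 per Mb and without a trend, 4 with array weights and 1 with only the groups compared, and ranged from 0 to 3 without single libraries. The 6 pathway calls with IFNG became 3 without a trend and ranged from 4 to 6. The causes were not tested, except that fits of fewer groups use fewer samples. No log2 change of a described peak changed sign past the threshold. Of the recomputed values at single described peaks, 722 kept their side of the threshold, 33 lost and 13 gained it. Same-numbered libraries did not deviate together (220 pairs, correlations from -0.063 to 0.055), and the replicate block changed no count (9, 6, 1, 6, 2 and 6). A composition factor over peaks covered in every library was chosen after seeing the data and moved the pathway count with IFNA to 3. Shallow libraries and low members limit all but large changes.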
